A study of Arabidopsis thaliana with 6 samples.

Results

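GR-bdl seedlings given dexamethasone (DEX) before auxin were compared with GR-bdl seedlings given auxin alone, across the transcripts of Affymetrix ATH1 arrays. The arrays were chosen by the treatment in the source labels, and they are 4 of the 6 arrays of the series, 2 per group. All seedlings were 9-day-old Arabidopsis thaliana of the pRPS5A-Myc-GR-bdl line, in which the RPS5A promoter, active in dividing cells, drives a Myc-tagged fusion of the glucocorticoid receptor (GR) with bdl. The treated group received 10 µM DEX for 1 h and then 50 µM of the auxin IAA for 1 h, and the control group received the same IAA without DEX. Both groups thus carried the transgene, and each array came from a separate liquid culture. The remaining 2 arrays hold mp-B4149 mutant seedlings given DEX and IAA, which entered the fit to estimate the spread between arrays. Seedlings with neither the fusion nor the mp mutation were not analysed here, nor were seedlings without auxin. An effect of DEX itself and one of the released fusion therefore cannot be told apart.

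Auxin acts through auxin response factors, which bind the promoters of early auxin genes, and through Aux/IAA proteins, which repress these factors. Auxin makes its receptors mark Aux/IAA proteins for destruction, and the repression ends. The bdl protein is a form of the Aux/IAA protein BODENLOS that auxin does not remove, and the auxin response factor MONOPTEROS (MP) is its best known partner. A GR fusion stays in the cytoplasm until DEX is added and then enters the nucleus.

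Levels are log2 gcRMA intensities, and a difference is the mean with DEX minus the mean without it, with the standard error (SE) of limma and n = 2 per group. A gene is said to have risen or fallen where the limma adjusted p was under 0.05. The arrays of a group correlated at 0.997 to 0.998, and the median SD between arrays was 0.07 in the controls and 0.11 with DEX. Poly-A control RNAs, added before labelling, were higher with DEX by a median of 0.36, and hybridization controls by 0.05, against a median of 0.04 over all probe sets. With the arrays centred on the hybridization controls, 130 probe sets rose and 478 fell, against 145 and 372 without centring. The part of the poly-A difference in the results was not tested. In a whole seedling, fewer cells that express a gene and less RNA per cell cannot be told apart. Of the tissue markers, the green shoot genes LHCB4.1, SBPASE, RCA and PRK differed by −0.02 to 0.04. The root genes JKD, EXPA7, PYK10 and EXPA18 differed by −0.80 ± 0.18, −0.51 ± 0.22, 0.00 ± 0.11 and 0.09 ± 0.25, with a median of −0.25. None of the root genes was called by limma after adjustment, and 2 were lower and 0 higher at an unadjusted p under 0.05. Over all 22746 probe sets tested, 1272 were lower and 1555 higher at that p. The part of root RNA in the results was not tested. The control means of the green shoot genes and PYK10 lay between 12.1 and 13.9, so transcripts of leaf and root were well detected.

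Among the probe sets that name 1 gene, the deepest decreases were in the early auxin genes SAUR10 and IAA29, and the largest increase was in SAUR57, also of an early auxin family. Over all 22746 probe sets tested, 517 (2.27%) were called, 372 (1.64%) lower and 145 (0.637%) higher with DEX. By 1 or more on the log2 scale, 229 (1.01%) were lower and 33 (0.145%) higher. Of the 13513 probe sets paired with 1 gene, 226 (1.67%) were called, 163 (1.21%) lower and 63 (0.466%) higher. Of the 13333 genes these represent, 225 (1.69%) were called, with 1.22% lower and 0.473% higher. All calls had groups that did not overlap, but so did 44.1% of all probe sets. Of the 226 calls with 1 gene, 183 are known here by locus only. The decreases also reached further: 77 probe sets fell by 2 or more on the log2 scale and none rose by as much. Of those 77, 24 name a gene, so most of the deepest decreases, down to −5.93, have no gene name here.

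**Figure D1:**
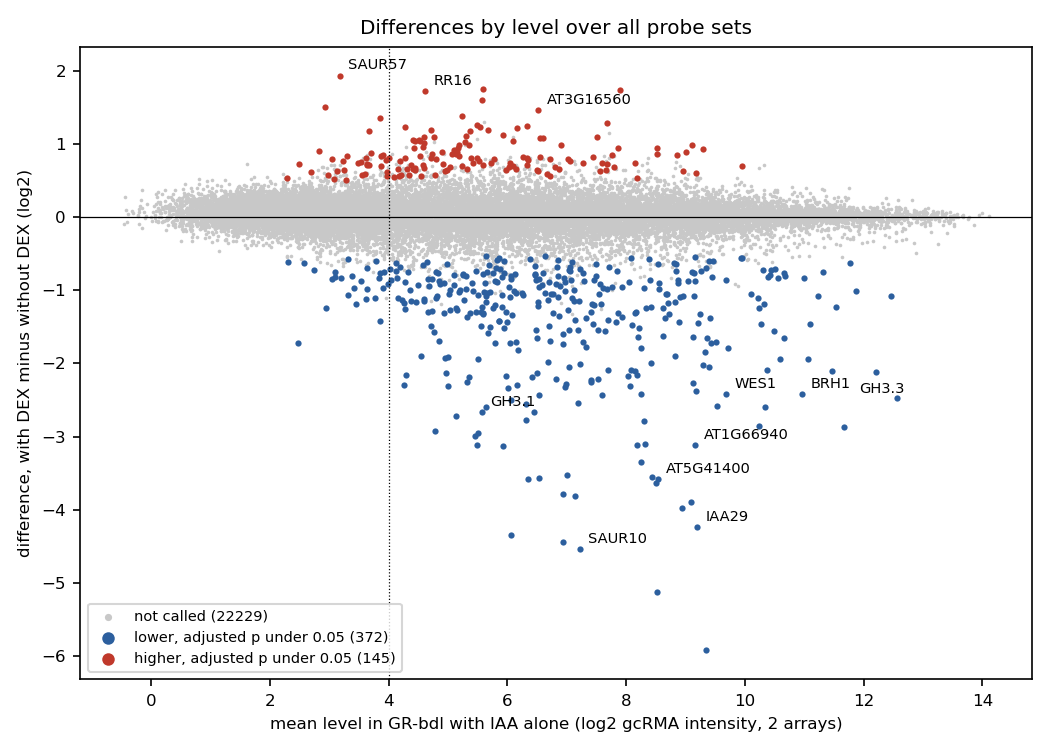
The difference between GR-bdl seedlings with and without DEX (vertical axis, log2) is plotted against the mean level in the controls (horizontal axis, log2 gcRMA intensity) for each probe set, with calls at a limma adjusted p under 0.05 in colour and the low end of the range left of the dotted line at 4. Decreases reach −5.93 and increases 1.94, and SAUR10, IAA29 and SAUR57 stand near the ends.

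Of the small auxin up RNA (SAUR) genes, which code for short proteins that promote cell expansion, 3 were measured, and they did not move together. SAUR10 stood at 7.06 and 7.39 in the controls and at 2.66 and 2.71 with DEX, a difference of −4.54 ± 0.15. With DEX it thus lay under 4, taken here as the low end, where 43.1% to 43.2% of the values of each GR-bdl array lie. SAUR57, which the array annotation gives as AT3G53250 and RefSeq synonyms name, went the other way, from 3.16 and 3.19 to 5.02 and 5.20. Its difference of 1.94 ± 0.11 was the largest increase of all probe sets, with a limma adjusted p of 6.43e-05. SAUR58 stood at 2.43 and 2.16 in the controls and 2.21 and 2.71 with DEX, and was not called. The calls of SAUR10 and SAUR57 were made without any 1 of the 6 arrays as well. Leaving out either mp array gives the same fit as the 4 GR-bdl arrays alone, since a lone mp array adds no spread. Counts out of 6 such fits therefore hold that fit more than once.

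Aux/IAA genes code for the repressors themselves and are induced by auxin. Of 32 listed, only 7 were measured, and 2 of these fell, against 1.22% of all genes. IAA29 stood at 9.18 and 9.21 in the controls and 4.94 and 4.98 with DEX, which is 18.9-fold lower. IAA30 went from 4.53 and 4.56 to 2.68 and 2.60. The other 5 were not called, and 4 of them lay under 4 in the controls. IAA18, the remaining member, read 8.42 and 8.33 in the controls and 8.37 and 7.84 with DEX, so its groups overlapped. The median difference of the 7 was −0.41, against 0.05 over all genes. At an unadjusted p under 0.05, 4 of the 7 were lower and 0 higher. The other listed members were not analysed here.

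GH3 genes code for enzymes that join auxin or jasmonate to amino acids, and 3 of 5 measured members fell, against 1.22% of all genes. GH3.3 stood at 12.18 and 12.24 in the controls and 10.15 and 10.03 with DEX, so it stayed high in both groups. GH3.1 went from 5.47 and 5.66 to 2.78 and 3.01. WES1, also known as GH3.5, went from 9.67 and 9.68 to 6.71 and 7.81, and its DEX arrays differed by more than those of the other members. GH3.17 and GH3.9 were not called, and their control means of 3.91 and 2.37 lay under 4. The GH3 median was −2.12.

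Transcription factor genes of auxin response fell as well. HAT2, a homeodomain-leucine zipper factor gene induced by auxin, read 11.45 and 11.47 in the controls and 9.27 and 9.44 with DEX. LBD16 and LBD29, which act when lateral roots are initiated, went from 5.87 and 5.49 to 4.12 and 4.08, and from 4.68 and 5.37 to 3.60 and 3.91. LBD16 was not called without DEX array 1, DEX array 2 or control array 1 (limma adjusted p of 0.0577, 0.0653 and 0.0604). LBD29 was not called without DEX array 1, DEX array 2 or control array 2 (0.148, 0.0989 and 0.195). PUCHI of the same list differed by −0.43 ± 0.15 and was not called. No probe set was paired with an auxin receptor or an auxin response factor of the lists used here, so MP and its relatives were not analysed here.

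Among the calls, genes of families with members in auxin transport or tropic growth moved in both directions. A role of these genes in either process is family background and was not tested. The 4 BIG GRAIN-like genes among the calls, named after a rice gene that promotes auxin transport and grain size, all fell. AT5G12050 stood at 9.50 and 9.54 in the controls and 7.10 and 6.79 with DEX. AT1G69160, AT3G42800 and AT1G54200 fell by 2.33 ± 0.19, 2.21 ± 0.16 and 1.57 ± 0.19. The called genes with an NPH3 domain, the type of protein that carries signals from phototropins and from AGC kinases, split. Members of these 2 families that were not called were not collected. Of all 226 calls with 1 gene, 163 fell and 63 rose. AT3G15570 rose from 5.62 and 5.51 to 7.26 and 7.08 and was called without any 1 array as well. AT3G22104 rose by 0.79 ± 0.13, and AT5G47800 fell by 1.15 ± 0.15. AT3G22104 was not called without DEX array 2 or either control array (limma adjusted p of 0.106, 0.171 and 0.0648), and AT5G47800 not without control array 1 (0.0541). WAG2, an AGC kinase gene of the auxin transport list, fell by 1.15 ± 0.21. Its call was lost without control array 1 or 2, where the differences were −1.19 and −1.10. It was also lost when the 4 GR-bdl arrays were fitted alone, which is the same fit as without either mp array. PID2 of that list lay near 2 in both groups and was not called.

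Cell wall genes gave few calls. Of 19 expansin genes, whose products loosen the wall, EXPA8 and EXPA4 fell and 17 were not called. Over all genes, 1.22% fell. EXPA8 went from 7.69 and 7.71 to 5.57 and 5.65. EXPA4 went from 6.85 and 7.21 to 5.43 and 6.08, and was not called without DEX array 1 or control array 2 (limma adjusted p of 0.0645 and 0.161). The expansin median was 0.02, and 5 of the 19 were lower and 0 higher at an unadjusted p under 0.05. Of all 22746 probe sets, 1272 were lower and 1555 higher at that p. Of 10 xyloglucan endotransglucosylase genes none was called by limma after adjustment and 2 had an unadjusted p under 0.05, and XTH19 came nearest (−0.41 ± 0.10). Of 36 listed pectin enzyme genes, 4 were measured and none was called by limma after adjustment. Their median was 0.16, and 1 was higher and 0 lower at an unadjusted p under 0.05. Outside these lists, called pectin genes were grouped after their values were seen. AT3G07010, of the pectin lyase family, and AT3G49220, of the pectin methylesterase family, fell by 1.08 ± 0.12 and 0.76 ± 0.11. AT3G15720, a further pectin lyase-like gene, rose from 3.07 and 2.79 to 4.72 and 4.15. AT3G49220 was called in 3 of the 6 fits that left out an array, and AT3G07010 and AT3G15720 in all 6.

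**Figure D2:**
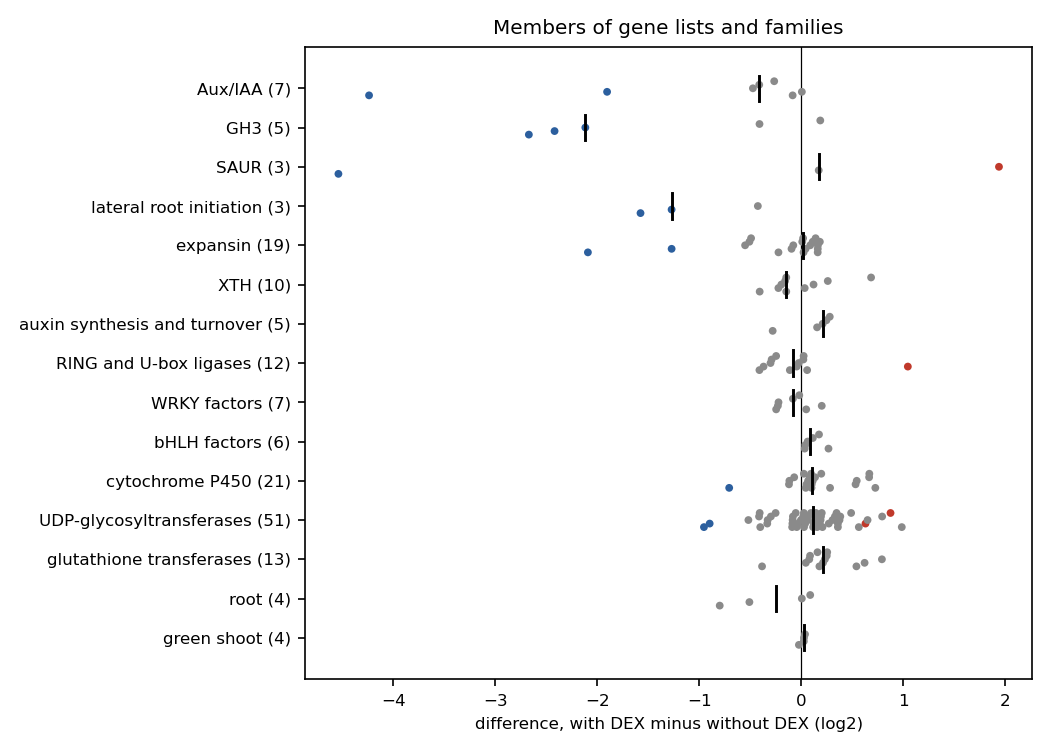
Each point is the difference (horizontal axis, log2, with DEX minus without) of a measured gene in a list or family, whose number of measured genes is in brackets, with genes that fell in blue, genes that rose in red and list medians as black bars. GH3 genes have a median of −2.12, while the expansins (0.02) and UDP-glycosyltransferases (0.12) centre near 0 with a few members outside.

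Many of the strongest decreases lay in genes known here by locus only. AT5G41400 and BRH1 code for RING finger proteins of the kind found in ubiquitin ligases, and BRH1 is named for its response to brassinosteroids. AT5G41400 stood at 8.52 and 8.56 in the controls and 5.22 and 4.69 with DEX, which is 12.0-fold lower. BRH1 went from 11.02 and 10.92 to 8.45 and 8.66. BAT1, an acyltransferase gene linked to brassinosteroids, went from 6.43 and 7.02 to 4.81 and 5.26, and was not called without DEX array 1 or control array 2 (limma adjusted p of 0.0747 and 0.0680).

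AT4G09890 and AT1G66940 fell by 3.57 ± 0.22 and 3.12 ± 0.16, and the former ended at 3.26 and 2.65. AT3G28420, AT1G68500, AT3G50340 and P1R3 differed by −2.72 ± 0.15, −2.30 ± 0.16, −2.23 ± 0.11 and −2.18 ± 0.11. No role is given for these 6 genes here. AT1G32190, of the alpha/beta hydrolase fold, fell from a mean of 6.53 to 3.81 and 4.39. AT3G60290, of the 2-oxoglutarate-dependent oxygenases, fell from 5.55 and 5.07 to 3.21 and 2.89. AT2G32560, an F-box protein gene, fell by 2.17 ± 0.17 at one probe set. Its second probe set lay at a mean of 0.09 over all arrays and differed by 0.06. AT1G21830 fell at both of its probe sets, by 1.90 and 1.16.

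Calls outside the auxin lists included single genes for regulators, picked out after their values were seen where they are neither among the 25 largest decreases nor on a list. AT2G43140, a basic helix-loop-helix factor gene, went from 9.14 and 9.12 to 6.60 and 7.14. AT5G53420, which codes for a CCT-motif protein, went from 9.19 and 9.38 to 7.17 and 7.35, and AT1G24530, a WD40 repeat gene, fell by 2.08 ± 0.11. DEWAX, an ERF-type repressor of wax synthesis, went from 11.18 and 10.95 to 9.09 and 9.15. The bZIP factor genes BZIP61, BZIP34 and bZIP44 fell by 1.65 ± 0.13, 0.82 ± 0.11 and 0.64 ± 0.11, the last called in 2 of the 6 fits with an array left out. NAC014 fell from 5.70 and 5.72 to 4.18 and 4.23. STZ, or ZAT10, a zinc finger gene of stress response, differed by −1.30 ± 0.18 and was not called without DEX array 1 or control array 2 (limma adjusted p of 0.0626 and 0.0648). No other gene of the stress and touch list was measured, and none of 7 WRKY genes was called by limma after adjustment, 0 had an unadjusted p under 0.05, and their differences ran from −0.25 to 0.20.

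**Figure D3:**
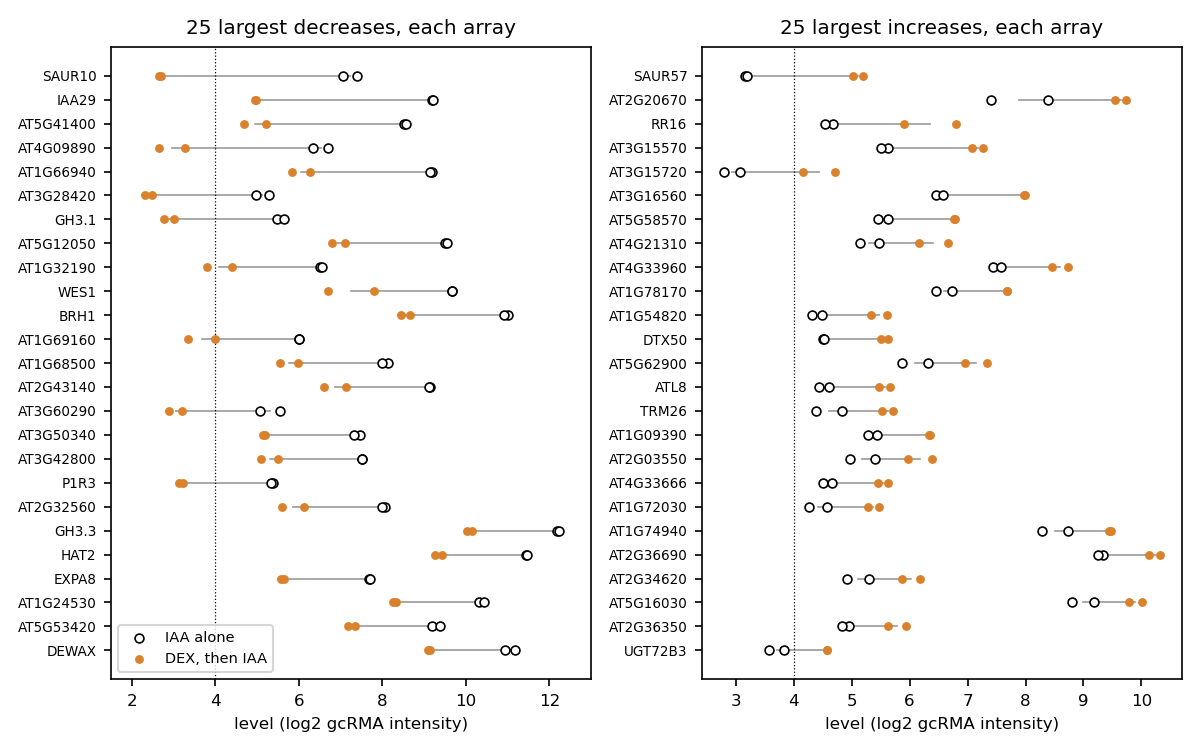
Levels (horizontal axis, log2 gcRMA intensity) in each control array (open circles) and each DEX array (filled circles) are shown for the 25 largest decreases and the 25 largest increases among calls that name a gene, with lines joining group means and a dotted line at the low end of 4. The groups of each gene stand apart, and the arrays of a group lie far from each other in WES1, AT2G20670 and RR16, among others.

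The rising side was shallower. Of the 63 calls that name a gene and were higher, 7 were called in each of the 6 fits that left out an array, against 66 of 163 that were lower. These 7 were SAUR57, AT3G15570, AT3G15720, AT3G16560, AT5G58570, AT4G33960 and DTX50. AT3G16560, a protein phosphatase 2C gene of the type that reverses kinase signalling, rose from 6.46 and 6.57 to 7.97 and 8.00. AT5G58570 and AT4G33960, for which no role is given here, rose by 1.24 ± 0.14 and 1.09 ± 0.13. DTX50, an efflux carrier of the MATE family, rose from 4.51 and 4.53 to 5.51 and 5.63.

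Other increases lost their call when single arrays were left out. Such a fit also has fewer arrays to estimate the spread, so a call can be lost while the difference holds. RR16, or ARR16, is a type-A response regulator of cytokinin signalling and stood at 4.68 and 4.54 in the controls. With DEX it read 6.79 and 5.89, a difference of 1.73. It was not called without control array 1 or 2, where the differences were 1.80 and 1.66. ARR15, the only other measured gene of the cytokinin list, differed by 0.14 ± 0.13. AT2G20670 read 8.39 and 7.40 in the controls and 9.73 and 9.55 with DEX. It was not called without DEX array 1, DEX array 2 or control array 2 (0.150, 0.157 and 0.198). AT1G54820, a protein kinase gene, rose from 4.32 and 4.49 to 5.33 and 5.60 and was not called without control array 1 (0.0522). AT4G21310 and AT1G78170, for which no role is given here, rose by 1.11 ± 0.18 and 1.09 ± 0.16. They were called in 4 and 3 of the 6 fits with an array left out. ATL8, a RING finger ligase gene, rose by 1.04 ± 0.15 and lost its call without DEX array 2 (0.0607) or control array 2 (0.0885). TRM26, of a family that binds the cortical microtubule factor TON1, rose by 1.02 ± 0.18. It was not called without DEX array 1, DEX array 2 or control array 2 (0.122, 0.0865 and 0.196).

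Most increases were smaller than 1 on the log2 scale. There were 112 such higher probe sets and 143 lower ones, and of these 1 and 4 were called in all 6 fits with an array left out. With a change of 1 or more the numbers were 15 of 33 higher and 177 of 229 lower. Leaving out control array 2 had the greatest effect on the small increases and left 2 of the 112, and leaving out control array 1 left 14. Before adjustment the balance was the reverse, with 1555 probe sets higher and 1272 lower at p under 0.05. The median difference over all probe sets was 0.04, and the part of this shift in that balance was not tested.

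**Figure D4:**
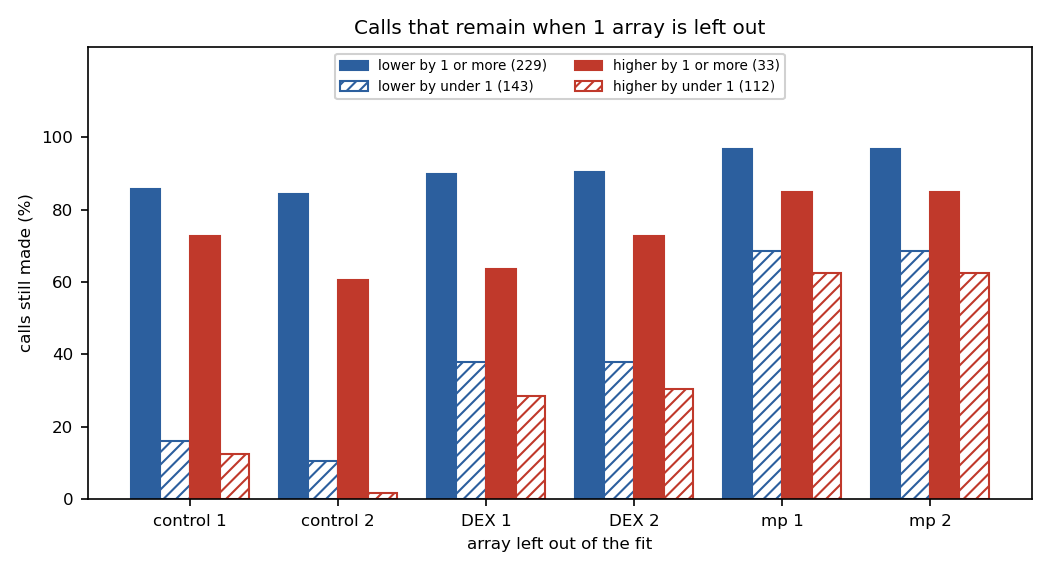
Bars give the share of calls (vertical axis, percent) that were made again when 1 array (horizontal axis) was left out of the fit. Decreases and increases are split into 1 or more and under 1 on the log2 scale, with the number of calls in brackets. The bars of both mp arrays come from the same fit. A call can be lost while its difference holds, since each fit has fewer arrays to estimate the spread. Increases of under 1 are the least stable, at 1.79% without control array 2, and decreases of 1 or more the most stable, at 84.3% or above.

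Among the small decreases, those of smallest p included AT3G50900, which stood at 7.04 and 7.20 in the controls and 6.12 and 6.14 with DEX. It was called without any 1 array as well. AT5G47550, a gene for a cystatin, an inhibitor of cysteine proteases, went from 10.72 and 10.63 to 9.89 and 9.85. UGT85A4, which codes for a UDP-glycosyltransferase, fell by 0.95 ± 0.12 and was not called without control array 1 (limma adjusted p of 0.0537). AT5G09800, of the U-box ligases, fell from 3.40 and 3.41 to 2.35 and 2.53, all near the low end. AT2G31730, a basic helix-loop-helix gene, fell by 0.94 ± 0.13. Calls of AT5G47550, AT5G09800 and AT2G31730 were each made in 4 of the 6 fits with an array left out.

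Among the small increases, AT1G09390, of the GDSL lipases, rose from 5.44 and 5.28 to 6.36 and 6.34. AT2G36690, of the 2-oxoglutarate-dependent oxygenases, rose from 9.33 and 9.26 to 10.33 and 10.14, opposite in direction to AT3G60290 of that group. Without control array 2 the limma adjusted p of these genes was 0.0520 and 0.0559. AT4G33666 rose by 0.96 ± 0.12 and was not called without control array 2 (0.0670). AT2G21180 went from 7.54 and 7.64 to 8.32 and 8.34, and AT5G53500, a WD40 repeat gene, rose by 0.73 ± 0.12. They were called in 4 and 3 of the 6 fits with an array left out.

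Several families held calls in both directions. The called members below were grouped by family after their values had been seen. Members that were not called were not collected, so the counts describe the calls only. Of all 226 calls with 1 gene, 163 fell and 63 rose. Of 5 MATE efflux genes, AT3G23550, AT5G52450, AT4G23030 and AT3G21690 fell by 1.14, 0.91, 0.74 and 0.57, and DTX50 rose. The calls of these 4 were made in 3, 3, 2 and 0 of the 6 fits with an array left out. Of 6 GDSL lipase genes, AT5G45670, AT2G27360 and AT1G29660 fell by 0.85, 0.68 and 0.54, and AT1G09390, AT4G28780 and AT3G05180 rose by 0.99, 0.84 and 0.58. Of these, AT1G09390 was called in 5 of the 6 fits and the others in at most 2. The leucine-rich repeat receptor kinase genes AT1G34110, AT3G47570, AT5G14210 and AT5G10290 all fell, by 1.29, 1.28, 1.06 and 0.83, with calls in 6, 5, 3 and 2 of the fits. The disease resistance genes of the TIR-NBS type AT5G40910, AT1G72920 and AT5G46450 fell by 1.31, 1.19 and 1.01, with calls in 6, 6 and 3 of the fits.

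Enzyme families of conjugation and the cytochrome P450s were measured in greater number from lists, and most measured members were not called. Over all genes, 1.22% fell and 0.473% rose. Only 21 of 245 listed P450 genes were measured, most of them of the CYP71B type, so they do not stand for the family. Of 51 UDP-glycosyltransferase genes, which attach sugars to hormones and other small molecules, UGT85A4 and UGT73B4 fell and UGT72B3 and UGT88A1 rose. UGT73B4 differed by −0.90 ± 0.16, UGT72B3 by 0.87 ± 0.15 and UGT88A1 by 0.63 ± 0.11, and they were called in 3, 2 and 0 of the 6 fits with an array left out. Of 21 cytochrome P450 genes, CYP71B37 fell, by 0.71 ± 0.14, and was called in 1 of these fits. At an unadjusted p under 0.05, 5 of the P450 genes were higher and 1 lower, and 13 of the glycosyltransferase genes were higher and 7 lower. The background at that p was 1555 higher and 1272 lower of all 22746 probe sets. Of 13 glutathione transferase genes none was called by limma after adjustment, 5 had an unadjusted p under 0.05, and GSTU16 (0.79 ± 0.20) and GSTU18 (0.62 ± 0.16) had the highest differences. Of 12 RING and U-box ligase genes matched by name pattern, ATL8 rose and 1 other, lower, had an unadjusted p under 0.05. None of 6 basic helix-loop-helix genes matched in that way reached that p. Both lists left out called members, so they do not stand for their families. Among these, the RING finger genes BRH1 and AT5G41400 fell and AT1G17970 rose. The basic helix-loop-helix genes AT2G43140, AT2G31730 and SPT fell. SPT differed by −0.67, −0.64 and −0.84 without DEX array 1, control array 1 and control array 2. The medians of the glycosyltransferases, P450s and glutathione transferases were 0.12, 0.10 and 0.21, against 0.05 over all genes. Genes of auxin synthesis and turnover, among them YUC2, YUC4, YUC6 and YUC11, were not called either, 1 had an unadjusted p under 0.05, and 4 of the 5 measured lay under 4 in the controls.

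Among the root genes, JKD, which acts in root tissue patterning, read 4.94 and 4.42 in the controls and 3.74 and 4.02 with DEX (limma adjusted p = 0.0756). EXPA7 read 7.22 and 7.68 in the controls and 6.65 and 7.23 with DEX, and EXPA18 6.63 and 6.55 against 6.22 and 7.13. Both are expansins of root hairs, and their groups overlapped. YAB3 and CLV3 of the shoot apex and PHV of the vascular list differed by 0.18, 0.00 and −0.15.

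Called genes were placed on all 5 nuclear chromosomes. The share of measured genes that fell lay between 1.01% and 1.47% per chromosome and the share that rose between 0.403% and 0.689%, while none of 69 plastid genes was called by limma after adjustment and 1 had an unadjusted p under 0.05. The median gene span was 2147 bases for genes that fell, 2069 for those that rose and 2103 for all measured genes. Neighbouring genes were called together in 6 pairs of adjacent protein-coding genes, and each pair moved the same way. Of 147 measured neighbours of genes that fell, 10 (6.8%) fell themselves, against 1.22% of all genes. Of 56 neighbours of genes that rose, 2 (3.57%) rose, against 0.473%. Each pair is counted from both of its genes, so the 10 come from 5 pairs and the 2 from 1 pair. The pairs that fell were HAT2 (−2.11) with AT5G47380 (−0.79), AT3G50340 (−2.23) with AT3G50350 (−1.10), AT1G21050 (−1.64) with AT1G21060 (−0.63), AT4G35200 (−1.06) with AT4G35210 (−0.62), and UGT85A4 (−0.95) with AT1G78260 (−0.71). AT5G41050 and AT5G41060 rose by 0.74 and 0.57. Whether probes of one gene also detect transcripts of its neighbour was not tested.

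The mp seedlings received DEX and IAA by their source labels and the design text, although their titles name IAA only. They carry no GR-bdl by their label and lack normal MP function. Their levels are given as a description, since that line differs from GR-bdl in more than the fusion. IAA29, AT1G66940, BRH1, GH3.3 and HAT2, which fell with DEX in GR-bdl, averaged 9.04, 9.01, 10.87, 12.07 and 11.31 in mp, close to the GR-bdl controls. SAUR10 averaged 5.12 and GH3.1 3.24, below the controls. AT3G42800 of the BIG GRAIN-like genes averaged 4.50 in mp, lower than in either GR-bdl group, while its relative AT1G69160 averaged 5.89, close to its control mean of 6.00. SAUR57 averaged 2.62 in mp, below both GR-bdl groups, and AT3G15570 averaged 7.64, above both.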

How the data were processed

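Per the submitters' processing notes, the authors made the deposited intensity values with GCRMA, with no version stated. The values are linear, since all lie above 0 and the array medians lie between 26.1 and 27.1. Groups were taken from the source labels, because the labels' treatment text names DEX for every sample. Log2 was taken with no pseudocount, and 64 AFFX control probe sets were left out. Of 22746 probe sets, 13513 (59.4%) are paired with 1 gene in the array annotation, and 13484 of these matched RefSeq (TAIR10.1), which was used for names, spans and gene order. A mean per group was fitted over all 6 arrays with limma 3.58.1 in R 4.3.3 (3 residual and 5.12 prior degrees of freedom), and Benjamini-Hochberg adjustment covered all probe sets. The number of arrays limits the precision. P-values measure only the spread between cultures. With 1 array left out, the lone array of its group was assumed to vary like the other groups. Where that group was mp, the fit was the same as with the 4 GR-bdl arrays alone. The fit was tested on simulated data with normal noise, independent between arrays. There, 67, 67 and 66 probe sets were changed by 0.5, 1 and 2 on the log2 scale. The fit recovered 34.3%, 98.5% and 100% of them in turn, with 12 false calls, so changes near 0.5 are often missed. Gene lists came from symbols and RefSeq synonyms, and the brightest of several probe sets stood for its gene. Listed genes without a probe set paired with 1 gene were not measured, so many lists were covered in part only. Patterns for cyclins, heat shock proteins and F-box proteins took in other genes and were dropped, as were cyclophilins from the P450 list. Apart from the pectin enzymes, lists with no measured gene, or with up to 4 and no call outside the tissue markers, are not described. Named, in the text or the plot of levels by array, were the 25 largest decreases and increases with 1 gene, and called list members. Of the 10 weaker calls of smallest p in each direction, those described in the text are a part. Genes in family groups and neighbour pairs, with NAC014, BAT1, BZIP61, SPT and AT1G21830, were named after their values were seen. The members and lists were chosen with earlier results of these data known. Roles of genes listed by locus only are background knowledge of their families. Promoter sequences were not used here, so the motif counts were not run. Figures were drawn with matplotlib 3.10.9 in Python 3.11.15.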

Additional observations from a re-analysis of the deposited data

How the results depend on the processing

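The count of higher probe sets (145) lay between 24 and 105 with 1 array left out, and that of lower ones (372) between 216 and 332. The counts were 50 higher and 225 lower without control array 1, 24 and 216 without control array 2, and 89 higher without DEX array 2. With a pseudocount of 16 there were 41 higher and 190 lower, and an adjusted p under 0.01 gave 29 and 221. A change of at least 1 left 33 and 229. By construction the pseudocount shrinks differences at low levels. The counts stayed within 1.5 times under the 4 GR-bdl arrays alone, repeated quantile normalization, both centrings, the filter on dim probe sets, other eBayes settings and the replicate block (161 higher and 398 lower). The labels tie the replicate numbers to no shared batch or day, and same-numbered deviations from the group means correlated at −0.03 between the DEX and control arrays, so the numbers were not taken as pairs. Among listed genes, 16 were lower and 5 higher. The pseudocount gave 9 and 2, other eBayes settings gave 9 higher, and with 1 array left out 11 to 14 were lower and 1 to 6 higher. The higher count was 2 without control array 1 and 1 without control array 2. The median of the auxin synthesis list turned from 0.21 to −0.28 under the filter on dim probe sets, which left YUC2 alone of its 5 genes. Of the 75 calls that the naming rule and the lists give, 30 were called under every setting that gave a value, and none changed direction. Calls named outside that rule were run with arrays left out and with the 4 GR-bdl arrays alone.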
